A study of Mus musculus with 8 samples.

Results

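The regions described here are 2601 low-methylated, CpG-poor tiles of the mouse genome that lie away from gene ends, out of 36513 autosomal tiles of 1 kb that could be measured. A tile was measured when at least 3 of its CpGs, with both strands added, had 10 or more reads in all 8 libraries. The low distal tiles had fewer than 30 CpG positions seen in any library and no tile of 30 or more within 2 kb, lay at least 5 kb from both ends of every gene of a RefSeq table, and averaged under 20% methylation in the 4 unrestricted libraries. CpG-poor refers here to covered positions only, since the CpGs in the sequence of the tiles were not counted. The low distal tiles make up 2601 of the 10297 distal CpG-poor tiles and hold 15017 of the 441994 shared autosomal CpGs. Since the unrestricted level chose them, that level is given as a description, and a difference between the diets leans upward by construction.

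The libraries were made by RRBS (reduced representation bisulfite sequencing), which enriches CpG-rich restriction fragments and reads unconverted cytosines as methylated. The cells were nephron progenitors sorted by GFP from kidneys of CD1 outbred embryos at E17.5, heterozygous for the transgene Tg(Six2-EGFP/cre) in both groups, whose Six2 regulatory sequence drives the reporter. In the calorie restricted group, 4 libraries came from embryos whose dams received 70% of the average daily intake, and in the unrestricted group 4 libraries came from embryos of dams fed without limit; sires and dams were 8 to 10 weeks old. It is not stated whether 1 library stands for 1 litter or for pooled embryos, so a p-value here covers the spread from library to library, which may be partly technical.

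Most CpGs of a mammalian genome are methylated, while CpG-dense promoters are kept unmethylated. Away from promoters, short stretches of low methylation in CpG-poor sequence often mark enhancers that transcription factors occupy, since binding and active histone marks are linked to local loss of methylation. In the embryonic kidney, Six2, Wt1, Pax2 and Sall1 are among the factors that maintain the progenitor pool, and distal elements near such genes are known to control them. No histone mark, accessibility or expression was measured in these libraries, so low methylation is the only property by which the tiles were judged.

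Reads over CpG cytosines totalled 16045992 to 32054622 in restricted and 20863822 to 37305007 in unrestricted libraries, and the median low distal tile had 100 to 204 reads per library. Mitochondrial CpGs were called methylated in 0.0221 to 0.0854% of reads, with 0.0663% in restricted library 1. Restricted library 1 stood apart at the low distal tiles, and differences between the diets are given with and without it where it moves them. In restricted libraries 1 and 2, reads also leaned to unmethylated CpGs: weighting all shared CpGs by reads shifted the mean level by -2.24 and -3.28 points, against a shift between -0.575 and 0.817 points in the other libraries. Gene-end tiles cannot separate the sorted cell type from others here: all 23 measured nephron progenitor genes had a tile under 5% at an end, but so did 13 of 14 ureteric bud, 10 of 11 stroma, 6 of 6 endothelium and 3 of 3 blood and immune genes.

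Some low distal tiles hold an internal transcript start, because a tile far from both ends of a gene can still contain the start of a shorter transcript. Of the 2497 tiles on chromosomes with RefSeq promoter entries, 127 (5.09%) held such a start, against 0.371% of distal CpG-poor tiles of 20 to 80% and 0.127% of those of 80% or more. The 4 printed stretches show this kind of tile, each as the 250 bases before the transcript start on the plus strand in RefSeq GRCm38.p6, the assembly of mm10. They are at chr1:187997577-187997826 (Esrrg), chr2:31759689-31759938 (Abl1), chr2:105682213-105682462 (Pax6) and chr17:75178531-75178780 (Ltbp1). Capitals mark the CpGs measured in all 8 libraries. Esrrg and Abl1 were taken from the tiles at 0% in all unrestricted libraries, as those among the most deeply read, and Pax6 and Ltbp1 were chosen after their values were seen, the first for lying in a run of low tiles and the second for its partly methylated CpGs.
Esrrg: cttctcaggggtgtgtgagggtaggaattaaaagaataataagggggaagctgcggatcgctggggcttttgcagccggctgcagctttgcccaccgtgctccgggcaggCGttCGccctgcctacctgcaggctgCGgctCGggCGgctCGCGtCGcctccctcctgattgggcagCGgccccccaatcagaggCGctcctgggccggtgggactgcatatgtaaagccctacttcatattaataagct
Abl1: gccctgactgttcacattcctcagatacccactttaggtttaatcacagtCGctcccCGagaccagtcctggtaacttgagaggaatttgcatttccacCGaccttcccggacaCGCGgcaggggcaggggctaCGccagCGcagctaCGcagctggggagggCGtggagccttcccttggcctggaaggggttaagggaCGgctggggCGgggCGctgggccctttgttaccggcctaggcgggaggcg
Pax6: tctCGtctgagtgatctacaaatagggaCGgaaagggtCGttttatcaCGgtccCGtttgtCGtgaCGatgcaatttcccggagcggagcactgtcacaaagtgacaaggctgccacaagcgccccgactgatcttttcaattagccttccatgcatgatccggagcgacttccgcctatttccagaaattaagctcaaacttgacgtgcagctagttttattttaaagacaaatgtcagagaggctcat
Ltbp1: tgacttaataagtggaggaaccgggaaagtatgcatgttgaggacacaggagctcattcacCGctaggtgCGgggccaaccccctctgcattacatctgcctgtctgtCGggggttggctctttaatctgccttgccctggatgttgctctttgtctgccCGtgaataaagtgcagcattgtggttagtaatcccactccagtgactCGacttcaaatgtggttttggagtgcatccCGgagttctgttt

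Esrrg encodes an orphan nuclear receptor related to the estrogen receptors, and its tile at chr1:187997001-187998000 lies inside the gene. Its 18 shared CpGs gave 0, 0, 0.22 and 0% methylation in restricted libraries 1 to 4 and 0% in all 4 unrestricted libraries. The Abl1 tile, inside the gene of a tyrosine kinase of growth control, had no methylated read among 4479 reads over 13 CpGs, which allows a level of up to 0.067% (3 reads of the total; such limits cover counting error only). Pax6 encodes a transcription factor best known from the eye and pancreas. The tile with its printed start averaged 0.157% ± 0.314 in restricted and 0.216% ± 0.251 in unrestricted libraries (SD, n = 4 each).

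Ltbp1, which encodes a protein that binds latent TGF-beta in the matrix, shows that a low tile can hold CpGs of unlike levels. Its tile averaged 11.9% ± 1.05 in restricted and 9.45% ± 1.18 in unrestricted libraries (SD, n = 4 each; logistic model with moderated dispersion, unadjusted p = 0.0863, Benjamini-Hochberg adjusted p = 0.773). The CpG 189 bases before the start (offset -189) had 39.0% in restricted and 37.1% in unrestricted libraries, and the one at offset -180 had 37.3% in restricted and 26.5% in unrestricted libraries. The CpG at offset -13 had 0% in every library. Across the 135 transcript starts found in low distal tiles, the 250 bases before a start held a median of 9.0 CG pairs (quartiles 5.0 and 13.0), against a median of 6.0 over 31396 autosomal RefSeq entries. The tiles had to hold at least 3 shared CpGs and the RefSeq entries did not, which favours the higher median. Few covered positions in a tile thus need not mean few CpGs in sequence at these starts.

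Very low levels prevailed among the low distal tiles. By unrestricted mean, 870 were under 1%, 830 between 1 and 5%, 365 between 5 and 10%, and 536 between 10 and 20%. The median level was 2.54% in restricted and 2.35% in unrestricted libraries. The restricted libraries were not used to choose the tiles, and in them 2557 of 2601 (98.3%) also averaged under 20%, the other 44 reaching at most 27.8%. The methylation was not spread evenly over CpGs: 94.5% of the shared CpGs averaged under 20%, while 79 CpGs in 69 tiles averaged 50% or more. Just inside the threshold lay tiles near BC039966 and Gm19120 and inside Snx18, with 18.2, 22.6 and 22.0% in restricted and 20.0, 19.9 and 20.0% in unrestricted libraries, rounded. Just outside it lay tiles inside Maml3, Abca4 and Zhx2, with 19.7, 18.9 and 16.9% in restricted libraries and 20.1% each in unrestricted libraries.

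By position, 1564 low distal tiles (60.1%) lay inside a gene, against 61.6% of the distal tiles of 20 to 80% and 50.2% of those of 80% or more. The median distance to the nearest gene end was 15.5 kb, and 353 tiles lay over 50 kb away. The tiles had 1894 different nearest or host genes. Camta1, which encodes a calmodulin-binding transcription activator, and Gse1 had 10 tiles each, and Prdm16, which encodes a zinc finger regulator of cell fate, had 7. Tiles tended to stand alone, since 2234 had no adjoining low distal tile and 10 runs had 3 or more, the longest 4.

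The 10 runs of 3 or more low tiles lay inside or near Nr5a2, Pax6, Maml3, Dnajc6, Mir148a, Nfix, Cacna2d2, Rab37, Gm10320 and Abcc4. The longest, of 4 tiles near the gene model Gm10320 (chr13:98502001-98506000), averaged 0.581% in restricted and 0.524% in unrestricted libraries. A run of 3 tiles inside Nr5a2, which encodes the nuclear receptor LRH-1, averaged 0.365% in restricted and 0.233% in unrestricted libraries (chr1:136947001-136950000). The run inside Pax6 averaged 0.935% in restricted and 1.04% in unrestricted libraries (chr2:105680001-105683000). The run inside Nfix, which encodes a nuclear factor I protein, averaged 1.28% in restricted and 1.35% in unrestricted libraries (chr8:84771001-84774000). A run whose nearest gene is Mir148a, a microRNA gene (chr6:51172001-51175000), averaged 0.185% in restricted and 0.0472% in unrestricted libraries. The highest run, at Cacna2d2, a calcium channel subunit gene, averaged 8.42% in restricted and 8.04% in unrestricted libraries.

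The tiles with the most CpGs were near zero or a few percent in both groups. The tile with the most shared CpGs, 28, lies inside Exoc3l2 and averaged 3.43% in restricted and 2.69% in unrestricted libraries. The tile inside Cnot8, which encodes a deadenylase subunit that shortens mRNA tails, had 27 CpGs and 0% in every restricted library, against 0.103, 0, 0.186 and 0.114% in unrestricted libraries 1 to 4. Tiles inside Fbxo46, Sim1 and Ttll1 averaged 0.0487, 0.75 and 0.0178% in restricted and 0.0208, 0.658 and 0.0969% in unrestricted libraries. In the unrestricted libraries 187 low distal tiles were at 0%, and 91 had no methylated read in any library. By the rule that took the 5 of these 187 with the most reads among tiles of at least 5 CpGs, Esrrg, Abl1, Acyp1, Senp7 and Osbpl1a are named, and of these Osbpl1a had 0.237% in restricted library 2 and 0% in the other 7 libraries.

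Mean methylation was higher away from the low distal tiles, which were chosen for a low level while their surroundings were not. The tiles averaged 5.05% ± 0.610 in restricted and 4.98% ± 0.122 in unrestricted libraries (SD, n = 4 each). CpGs 0.5 to 1 kb from the tile centre averaged 8.66% ± 0.289 in restricted and 8.76% ± 0.174 in unrestricted libraries over the 400 tiles with such CpGs, and those 1 to 2 kb away averaged 24.6% ± 0.418 with restriction and 24.4% ± 0.343 without, over 163 tiles. From 2 to 50 kb the mean stayed between 26.1 and 29.9% in both groups. Around distal tiles of 20 to 80% the mean ran the other way, with 54.6% ± 1.02 in restricted and 55.0% ± 0.649 in unrestricted libraries at the tile and 31.6% ± 0.239 in restricted and 31.6% ± 0.218 in unrestricted libraries at 20 to 50 kb. Different tiles have CpGs at each distance, and the covered surroundings are those that RRBS reaches.

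**Figure D1:**
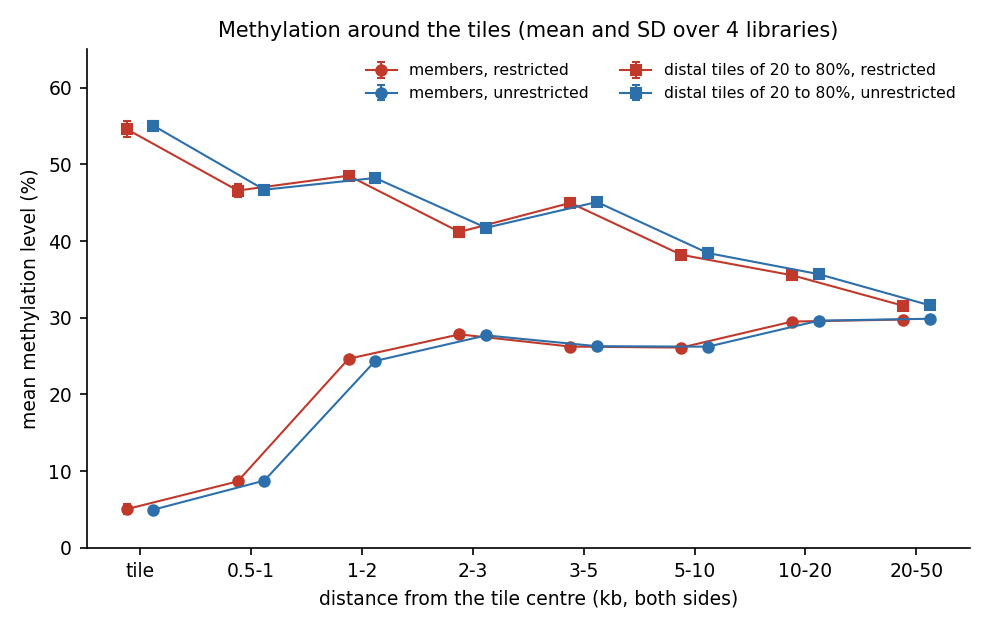
Mean methylation level (percent) at the tile and at CpGs of increasing distance from its centre (kb), for low distal tiles (circles, "members") and distal CpG-poor tiles of 20 to 80% (squares). Points and bars are the mean and SD over 4 libraries per group. The low tiles sit near 5% and their surroundings at 24.4 to 29.9% beyond 1 kb, while the levels of the groups nearly coincide at each distance.

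The step between a tile and its surroundings did not differ between the diets beyond the spread of the libraries. Over the 919 low distal tiles with at least 3 CpGs 2 to 10 kb away, the surroundings averaged 28.7% and the tiles 4.90%, and the surroundings were higher at 637 of them. The step was 23.7 ± 0.429 points in restricted and 23.9 ± 0.292 points in unrestricted libraries (SD, n = 4 each). The difference was -0.190 points (exact two-sided permutation test, p = 0.571). It turned to 0.0201 points without restricted library 1 (exact p = 0.857). The size of the step varied with the read threshold. With 20 reads per CpG the surroundings averaged 11.4% and the tiles 3.93%, and the surroundings were higher at 97 of 201 tiles. With 5 reads per CpG the surroundings averaged 39.6% and the tiles 5.70%, and the surroundings were higher at 1534 of 1885 tiles.

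The mean level of the low distal tiles did not differ between the diets beyond the spread of the libraries, and 1 library set that spread. Restricted libraries 1 to 4 averaged 5.96, 4.65, 4.78 and 4.81%, and unrestricted libraries 1 to 4 averaged 5.02, 5.12, 4.94 and 4.83%. Restricted library 1 was the highest of all, while the other 3 restricted libraries lay below every unrestricted library. The difference was 0.0695 points (exact two-sided permutation test, p = 1.0). With tiles chosen by the restricted mean it was -0.160 points (exact p = 0.686), and with tiles chosen by the mean of all 8 libraries -0.0509 points (exact p = 0.943). Without restricted library 1 it was -0.233 points (exact p = 0.0571, adjusted p = 0.220 over the 27 sets of tiles compared this way; 3 libraries against 4 cannot go below 0.0286). Those sets overlap and include level bins drawn on the unrestricted values, so the adjusted p is only a rough guide. With tiles chosen by all 8 libraries and library 1 then left out, a setting added after the data were seen, the difference was -0.349 points (exact p = 0.0286, the smallest this design allows).

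Restricted library 1 exceeded the mean of the other 7 libraries by 1.08 points over the low distal tiles and had the highest level in 610 of them (23.5%), against 242 to 296 for any other library. Of the CpGs in these tiles, 49.3% had at least 1 methylated read in restricted library 1, against 31.6 to 43.9% in the other libraries, whose depth differs. The excess was present at every level, from 0.584 points in tiles under 1% to 1.39 points in those of 5 to 10%. In the low distal tiles that hold a transcript start it was 0.290 points. In CpG-poor tiles under 20% within 1 kb of a gene end it was 0.118 points, but those tiles are lower, with 2495 of 3550 under 1%. In gene-end tiles under 1% the excess was 0.0631 points and in those of 1 to 5% it was 0.365 points, against 0.584 and 1.28 points in low distal tiles of the same levels, and restricted library 1 was the highest of the 8 in both gene-end sets as well. In CpG-poor gene-end tiles of 5 to 20% the excess was 0.0976 points, against 1.39 and 1.36 points in low distal tiles of 5 to 10% and 10 to 20%. Restricted library 1 had 10.6% in those gene-end tiles, below restricted library 3 (10.8%) and unrestricted library 2 (11.7%). In CpG-dense gene-end tiles the excess was 0.00381 points. These excesses were not tested against each other. In distal tiles of 80% or more the library was 0.619 points below the others.

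**Figure D2:**
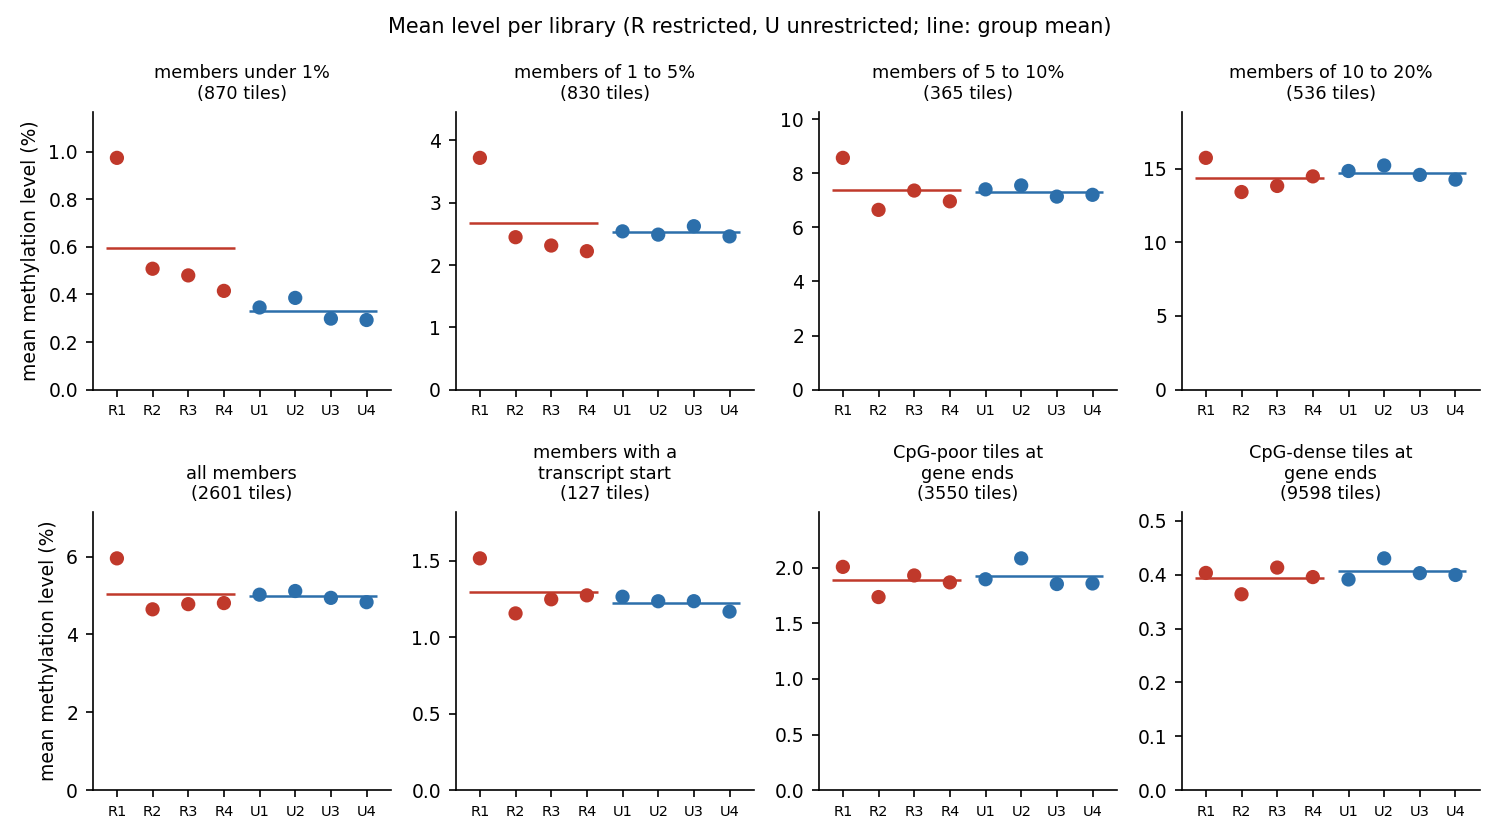
Mean methylation level (percent) of each library over 8 sets of tiles, with restricted libraries (R1 to R4, red) left of unrestricted libraries (U1 to U4, blue) and a line at each group mean. The upper panels split the low distal tiles ("members") by unrestricted level. R1 lies above the other libraries in all 4 upper panels, and within their range in CpG-dense tiles at gene ends.

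**Figure D3:**
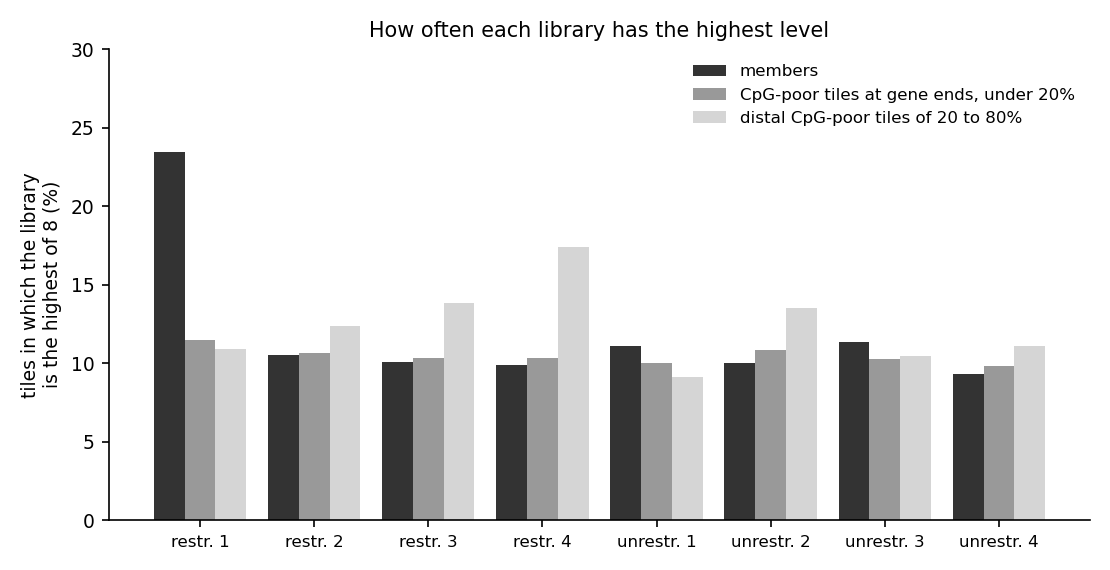
Share of tiles (percent) in which each library had the highest level of the 8, for low distal tiles ("members", dark), CpG-poor tiles under 20% at gene ends (grey) and distal CpG-poor tiles of 20 to 80% (light). Restricted library 1 reaches 23.5% in the low distal tiles, against 11.5% in the gene-end tiles and 10.9% in the tiles of 20 to 80%.

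The excess at single tiles varied widely, and the examples here are tiles where it was large. Of the 19 low distal tiles near nephron progenitor genes, restricted library 1 was the highest of the 8 in 2 (10.5%). At the tile nearest to Six2 its excess over the mean of the other 7 was -0.103 points. At the tile inside Fgfr1, a receptor of the FGF signals that progenitors need (chr8:25564001-25565000, 15 CpGs), restricted libraries 1 to 4 had 10.2, 1.56, 1.59 and 1.96%, and unrestricted libraries 1 to 4 had 1.97, 1.48, 1.86 and 2.29%. At the tile inside Lgr5, a receptor for R-spondins (chr10:115556001-115557000), the restricted libraries had 10.7, 0.667, 2.99 and 1.48% and the unrestricted libraries 2.44, 2.25, 1.17 and 2.65%. Only restricted library 1 left the range of the rest at both. Also chosen for the size of the excess, the tile inside Col25a1 had 25.9% in restricted library 1 and 6.36 to 13.1% in the other 7 libraries, and the tile inside Ank had 21.7% in that library and 0 to 9.94% in the others.

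Split by unrestricted level, the tiles under 1% averaged 0.594% ± 0.256 in restricted and 0.330% ± 0.0436 in unrestricted libraries (SD, n = 4 each), a difference of 0.264 points, or 0.137 points without restricted library 1. The tiles of 1 to 5% averaged 2.68% ± 0.702 in restricted and 2.53% ± 0.0719 in unrestricted libraries (SD, n = 4 each), a difference of 0.148 points, or -0.200 points without restricted library 1. These bins are drawn on the unrestricted values that are then compared, which shapes the order of the groups within a bin, so no test is given. CpG-poor gene-end tiles binned in the same way differed by 0.0317 points under 1% (0.0186 without restricted library 1) and by -0.00718 points at 1 to 5% (-0.115 without it).

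Set against the distal tiles of 20 to 80%, the low distal tiles showed no diet difference beyond the spread. The low tiles gave the difference of 0.0695 points above, and the tiles of 20 to 80% averaged 54.6% ± 1.02 in restricted and 55.0% ± 0.649 in unrestricted libraries (SD, n = 4 each). The difference of these differences was 0.525 points (exact two-sided permutation test, p = 0.40). It was 0.264 points without restricted library 1 (exact p = 0.743). It was -0.400 points without restricted libraries 1 and 2 (exact p = 0.467). Both sets of tiles were cut on the unrestricted mean, so the choice can shift this contrast, and its p-values are not free of that.

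No single low distal tile passed the test for a diet difference. Of the 2601 tiles, 91 had no methylated read in any library, and the other 2510 were tested with a logistic model whose dispersion was moderated across all 33897 testable tiles. Of these 2510 tiles, 0 had a Benjamini-Hochberg adjusted p under 0.05, against a background of 0.0177% of all tiles. At an unadjusted p under 0.05 there were 215 (8.57%), against a background of 6.32%, and 201 without restricted library 1. The share of all tiles at that p was counted for the main fit only, so such counts from other fits have no background. Of the 215, 141 were higher with restriction (5.62%, background 3.0%) and 74 lower (2.95%, background 3.32%); the choice by the unrestricted mean favours the first. The groups did not overlap in 35 tiles higher with restriction (1.39%, background 0.997%) and 29 lower (1.16%, background 1.26%). The edgeR quasi-likelihood test called 17 low distal tiles (13 higher, 4 lower; 110 of all 33897 tiles, 0.325%), limma on M-values called 0 with 194 at an unadjusted p under 0.05, and without unrestricted library 2 the logistic model called 3 (2 higher, 1 lower; 20 of all 33283 tiles, 0.0601%).

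The 5 tiles of smallest p with a higher level under restriction included one 10.0 kb from Scg2, which encodes a secretory granule protein (chr1:79450001-79451000, 10 CpGs). Restricted libraries 1 to 4 had 18.6, 18.9, 15.4 and 17.1% there, and unrestricted libraries 11.1, 11.2, 13.0 and 10.8%. The groups did not overlap, and the difference was 5.98 points (adjusted p = 0.363 by the logistic model). The tile inside Pola2, which encodes an accessory subunit of DNA polymerase alpha, had 4.17, 11.0, 4.06 and 2.22% in restricted and 1.92, 0.341, 0.641 and 0% in unrestricted libraries. The groups did not overlap there either (chr19:5954001-5955000, adjusted p = 0.303 by the logistic model).

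The tile inside Cacna1c, which encodes the pore of an L-type calcium channel, had 5.05 to 7.39% in restricted and 1.37 to 3.56% in unrestricted libraries. The tile inside Sox13, a transcription factor gene, had 1.46, 2.31, 2.23 and 0% in restricted libraries, against 0, 0, 0.309 and 0% in unrestricted libraries. The tile near the gene model Gm35143 had 0 to 3.28% in restricted libraries and 0% in all unrestricted libraries. At these last tiles the groups overlapped through restricted library 4, which was at 0% in both.

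Among the tiles of smallest p with a lower level under restriction, the one inside Insrr, which encodes a receptor of the insulin receptor family (chr3:87810001-87811000, 6 CpGs), had 10.5, 6.67, 12.9 and 12.2% in restricted and 18.3, 18.9, 15.2 and 21.4% in unrestricted libraries. The groups did not overlap, and the difference was -7.88 points (adjusted p = 0.303 by the logistic model). The tile 5.01 kb from Lca5, a gene of the cilium, had 0 to 0.962% in restricted and 2.05 to 5.48% in unrestricted libraries. The tile inside Wwox, which encodes an oxidoreductase with WW domains, had 3.52 to 5.43% in restricted and 8.23 to 15.8% in unrestricted libraries. The groups did not overlap at either tile.

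The tile 18.2 kb from Pip4p2, which encodes a phosphoinositide phosphatase (chr4:14845001-14846000, 10 CpGs), was uneven within the unrestricted group. Restricted libraries 1 to 4 had 0.541, 0.312, 0 and 1.16%, and unrestricted libraries 1 to 4 had 20.6, 0, 11.5 and 7.78% (adjusted p = 0.303 by the logistic model, and 0.000613 without unrestricted library 2). Unrestricted library 2 lay with the restricted libraries and the other 3 stood far above them. The tile near Gm6360 had 3.0, 15, 6.90 and 4.76% in restricted libraries, against 20.5, 8.33, 13.6 and 22.7% in unrestricted libraries, and its groups overlapped through restricted library 2. Of these 10 tiles edgeR called Pola2, Sox13, Gm35143, Pip4p2, Gm6360 and Lca5 (adjusted p between 1.1e-11 and 0.0422), and the logistic model with 1 common dispersion called all of these but Gm35143.

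**Figure D4:**
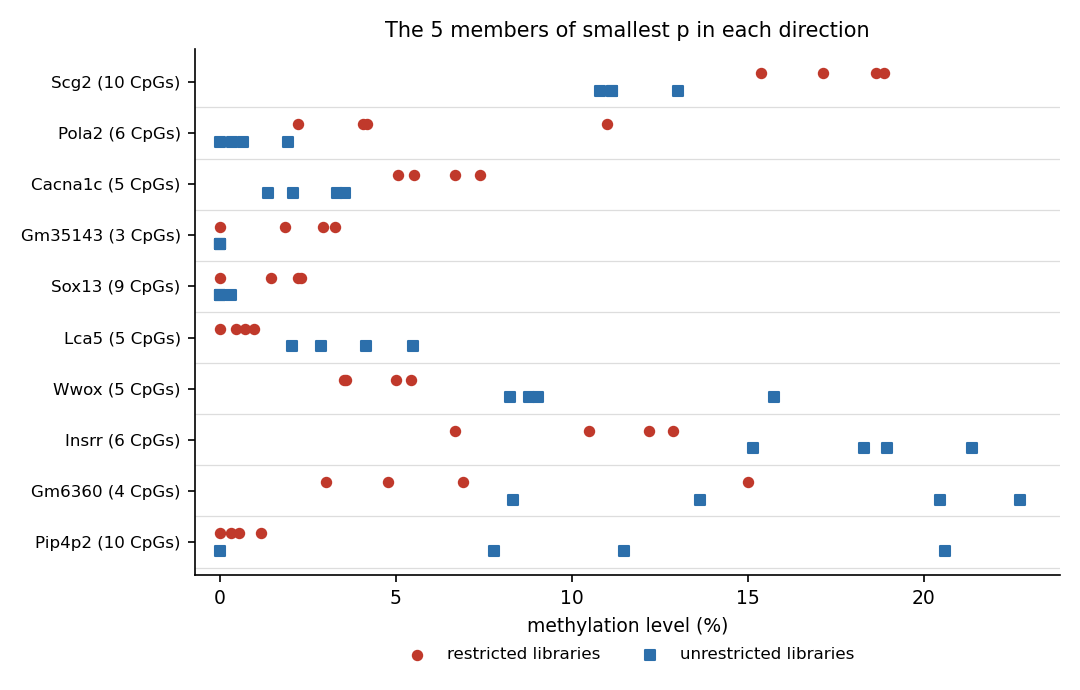
Methylation level (percent) of each library at the 5 low distal tiles of smallest p in each direction, restricted libraries (red circles) above unrestricted libraries (blue squares) in each row. The groups are separate at Scg2, Pola2, Cacna1c, Lca5, Wwox and Insrr and overlap at the other 4 tiles, and none of the 10 had an adjusted p under 0.05 in the logistic model, while edgeR called 6 of them.

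Of 10842 single CpGs tested in low distal tiles, 5 were called for a diet difference (logistic model, adjusted p under 0.05). That is a share of 0.0461% against a background of 0.0997% of 191637 CpGs. At an unadjusted p under 0.05 there were 745 (6.87%, background 5.62%). The 3 that fell lie close together in the Pip4p2 tile, at positions 14845656, 14845726 and 14845731 of chromosome 4, and are not separate observations. They had 0% in every restricted library and in unrestricted library 2, and 8.33 to 22.0% in the other unrestricted libraries. The adjusted p ranged from 0.0218 to 0.0346. A CpG that rose lies inside Arhgap21 (chromosome 2, position 20900138), with 13.8, 15.1, 0.326 and 8.95% in restricted and 1.04, 1.58, 3.07 and 3.23% in unrestricted libraries (adjusted p = 3.31e-05 by the logistic model). Restricted library 3 was the lowest of all 8 there. The other CpG that rose, at position 122357228 of chromosome 1, had 4.13, 4.29, 1.15 and 0.457% in restricted and 0.385, 0.318, 0 and 0% in unrestricted libraries (adjusted p = 0.00874 by the logistic model). The count of called CpGs was 9, 12 and 9 without restricted library 1, 2 or 3, and 3 and 28 without unrestricted library 1 or 2. Over all CpGs tested the same fits called 532, 511, 416, 161 and 746.

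Genes of the nephron progenitor list had 30 distal CpG-poor tiles nearest to them, and 19 of these (63.3%) were low distal tiles, against 25.3% of all 10297 distal CpG-poor tiles. They belong to 9 of 30 listed genes. Uncx, which encodes a homeobox factor, had 6 and Cdh6, which encodes a cadherin, had 3. Bmp7, Fgfr1 and Pax2 had 2 each, and Wt1, Lin28b, Etv5 and Six2 had 1 each. The share was 8 of 24 (33.3%) for early nephron genes, 7 of 14 for ureteric bud, 7 of 14 for stroma, 7 of 16 for podocyte, 5 of 16 for endothelium, 1 of 13 for blood and immune and 0 of 4 for tubule genes. The tiles of 1 gene are not independent, and these shares were not tested.

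The tile nearest to Six2, the factor that keeps progenitors undifferentiated, lies 15.7 kb away (chr17:85646001-85647000, 4 CpGs). It had 2.13, 1.79, 3.33 and 3.0% in restricted libraries and 1.52, 2.86, 0 and 3.12% in unrestricted libraries, and the groups overlapped. The tiles near Pax2, a paired-box factor of early kidney formation, lie 19.6 and 21.6 kb away. The nearer one had 20 CpGs and 0 to 0.29% in restricted and 0 to 0.27% in unrestricted libraries, among the lowest levels of the list. The tile inside Wt1, which encodes a zinc finger factor needed for progenitor survival, was higher, with 7.82 to 11.9% in restricted and 7.99 to 14.7% in unrestricted libraries.

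Of the 19 tiles near progenitor genes, 0 were called. The 2 with an unadjusted p under 0.05 (background 6.32% of all tiles) were both lower with restriction. One is the farther tile of Bmp7, which encodes a survival signal of the progenitors (chr2:172787001-172788000). It had 6.23, 6.25, 5.99 and 11.7% in restricted and 17.1, 8.85, 13.5 and 10.3% in unrestricted libraries (unadjusted p = 0.00836, adjusted p = 0.737 by the logistic model). The other lies 6.82 kb from Uncx, with 0 to 0.372% in restricted and 0.251 to 1.03% in unrestricted libraries. The median difference over the 19 tiles was 0.298 points and over all low distal tiles 0.0 points. The mean over the 19 tiles was 6.05, 3.92, 5.96 and 5.96% in restricted and 5.98, 5.70, 6.05 and 5.67% in unrestricted libraries (difference -0.374 points, exact two-sided permutation test, p = 0.80; -0.568 points without restricted library 1, exact p = 0.40), with restricted library 2 below all others.

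**Figure D5:**
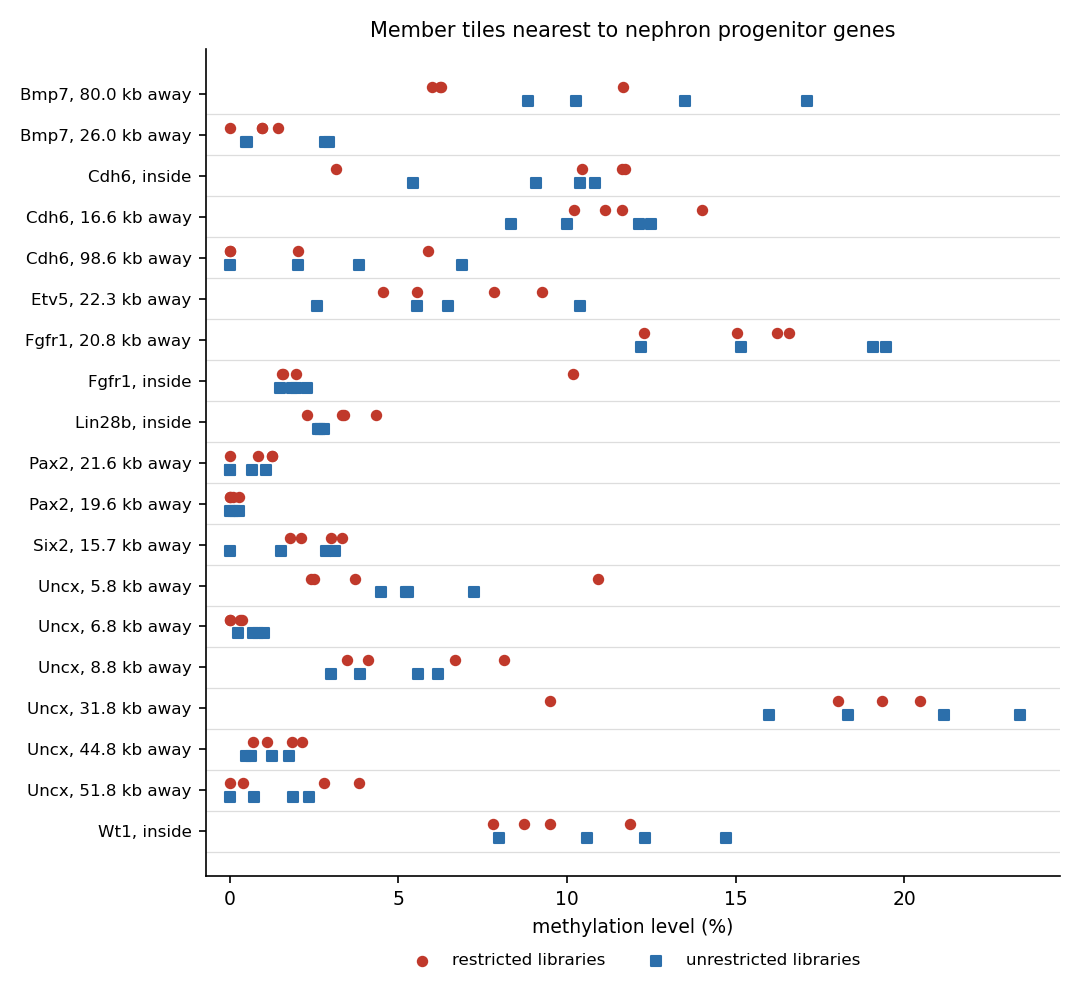
Methylation level (percent) of each library at the 19 low distal tiles nearest to genes of the nephron progenitor list, restricted libraries (red circles) above unrestricted libraries (blue squares) in each row. Levels range from 0% near Pax2 to 23.4% near Uncx, and the lone red point at 10.2% inside Fgfr1 is restricted library 1.

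Developmental transcription factor genes had the most low distal tiles of the lists, 61 of their 139 distal CpG-poor tiles, at 25 of 44 genes. Of 60 tested, 0 were called, and 5 higher and 1 lower with restriction had an unadjusted p under 0.05. Over all low distal tiles tested, 5.62% were higher and 2.95% lower at that p, against 3.0 and 3.32% of all tiles. The choice by the unrestricted mean favours the higher ones. The tile inside Gli2, an effector of Hedgehog signalling, averaged 1.71% in restricted and 1.53% in unrestricted libraries. Tiles inside Lmx1b and Tbx15 averaged 0.644 and 0.368% in restricted and 1.16 and 0.707% in unrestricted libraries. The tile inside Tshz2, a zinc finger factor gene, had 3.11, 1.32, 1.28 and 2.89% in restricted and 1.53, 1.59, 0.607 and 0.795% in unrestricted libraries (adjusted p = 0.760 by the logistic model).

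Signalling genes of nephrogenesis had 18 low distal tiles, of which 0 were called. Among these, 1 tile was higher with restriction at an unadjusted p under 0.05 (background 3.0% of all tiles). That tile lies inside Slit3, a guidance ligand gene, with 6.25, 7.41, 9.43 and 5.03% in restricted and 1.27, 1.68, 1.01 and 6.41% in unrestricted libraries (adjusted p = 0.737 by the logistic model). The tiles near Smad6 and Spry2, which encode inhibitors of BMP and FGF signalling, averaged 12.7 and 1.29% in restricted and 16.7 and 0.625% in unrestricted libraries. Nutrient and insulin sensing genes had 8 tiles of their 25, with 0 called. Tiles near Irs2 and Foxo1, of the insulin pathway, averaged 21.9 and 1.65% in restricted and 19.4 and 1.94% in unrestricted libraries.

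Low distal tiles also lay near genes of other kidney and blood cell types. The tile with a start of Clic5, a podocyte gene, averaged 0.0583% in restricted and 0.0668% in unrestricted libraries. The tile inside Ets1, an endothelial transcription factor gene that other cells also express, had 0 methylated reads of 2047, which allows up to 0.147%. A tile near Gata3, a factor of the ureteric bud, averaged 0.881% in restricted and 1.09% in unrestricted libraries. The 1 tile of a blood and immune gene lies inside Runx1 and averaged 3.21% in restricted and 3.90% in unrestricted libraries. In the podocyte, endothelium, ureteric bud and blood lists 0 tiles were called, and 0 had an unadjusted p under 0.05 (background 6.32% of all tiles). In the stroma list 1 of the 7 tiles was lower at that p (background 3.32%) and 0 were called. No cell type was measured separately, and the share of other cells in a library was not tested.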

How the data were processed

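RRBS was read from 8 libraries, grouped by their labels. Per the submitters' processing notes, the tools were Bismark 0.13.1, Trim Galore 0.3.3, methylKit, cutadapt and FastQC on mm10, without settings. The deposited files give, for each CpG cytosine, the count of covering reads and the percent of them methylated and unmethylated. The product of count and percent, rounded, gave the methylated reads, and both strands of a CpG were added. A tile's level is its pooled methylated reads over its pooled reads at shared CpGs. PCR copies in RRBS cannot be removed, so read numbers overstate the independent molecules.

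Tiles and CpGs were tested by a logistic model with 1 diet term and a Pearson dispersion of at least 1, moderated as in limma's squeezeVar, with Benjamini-Hochberg adjustment over all tested tiles or CpGs, and values per library by exact permutation over 70 splits. In data simulated with known changes, this model called more unchanged tiles than its nominal 5% of calls allows, so calls of single CpGs may hold more false ones than that. Alternatives were limma 3.58.1 on M-values (the log2 ratio of methylated to unmethylated deposited counts, 1 added to each), edgeR 4.0.16 on the counts, a common dispersion, other coverage and tile rules, a replicate block and leaving out libraries. The members, lists and tests were chosen with earlier results of these data known, and 2 alternatives were added after seeing the data.

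Tiles named are the 5 of smallest p per direction, the 5 with the most CpGs, the 5 lowest with at least 5 CpGs, those next to the threshold, those nearest to listed genes and those in runs. A tile's gene is its host or the gene with the nearest end, passing over Gm and Rik models where another lies within 100 kb. Positions are mm10; gene positions and promoter sequences are RefSeq GRCm38.p6, and chromosome 18 has no promoter entries here. Tile sequence was not analysed here. The values of 1 tile that the rule names are not reported here.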

Additional observations from a re-analysis of the deposited data

Results flagged for a closer look

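Of 36 groups of 4 libraries examined, 7 had a library far from the other 3 by Dixon's criterion. The criterion flags about 1 in 20 groups of independent, normally distributed values. Some of these groups share tiles or lie at or near 0%, so that rate is no measure for them. Restricted library 1 was far above the other restricted libraries in the mean of the low distal tiles, at 5.96%, in that of tiles under 1%, at 0.974%, and in that of tiles of 1 to 5%, at 3.72%. These 3 sets share tiles and are not separate observations. Restricted library 2 was far below the rest of its group in the mean over the 19 tiles near nephron progenitor genes, at 3.92%. Single tiles gave the other flags: unrestricted library 3 stood at 13.0% near Scg2 and at 0.309% inside Sox13, each above its group, and unrestricted library 1 at 15.8% inside Wwox. The difference between the diets has the same direction at these 3 tiles without the library named, but no other outcome was possible. The groups do not overlap near Scg2 or inside Wwox, and inside Sox13 the library named is the only unrestricted one above 0%.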

How the results depend on the processing

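The difference in mean level between restricted and unrestricted libraries was 0.0695 points and turned negative with tiles chosen by the restricted mean (-0.160) or by all 8 libraries (-0.0509), without restricted libraries 1 and 2 (-0.184), and with the choice by all 8 and restricted library 1 left out (-0.349). It ranged from -0.233 to 0.203 without 1 library. The step to the surroundings turned to 0.0264 with the choice by the restricted mean and to 0.0727 without restricted libraries 1 and 2, and ranged from -0.313 to 0.0201 without 1 library. The contrast with tiles of 20 to 80% turned to -0.400 without restricted libraries 1 and 2, and ranged from 0.169 to 0.884 without 1 library. Called tiles numbered 0 to 3 without 1 library, 19 with a common dispersion (14 higher, 5 lower; 219 of all 33897 tiles, 0.646%) and 17 with edgeR (270 at an unadjusted p under 0.05; 110 of all tiles, 0.325%). Called CpGs numbered 3 to 28 without 1 library and 11 without restricted libraries 1 and 2, where 134 to 746 and 673 of all CpGs were called. The cause of these shifts was not tested. The 10 tiles of smallest p kept their direction in 135 of 135 alternative values, 12 of them past an adjusted p of 0.05. These tiles were chosen by their p in the same libraries, so a kept direction was favoured by the choice. The labels do not say whether same-numbered libraries belong together. Correlations of their deviations were -0.0612 to 0.00856, against -0.0438 to 0.0334 for libraries of different numbers, which does not settle it. With the replicate block 0 tiles were called and 60 had an unadjusted p under 0.05. For these 60, and for the 270 with edgeR, the share of all tiles at that p was not counted. The 3 differences of 0.0695, 0.525 and -0.190 cannot change under that block, since pairing leaves a difference of means as it is. With 4 libraries a group, exact tests cannot go below 0.0286, and tiles of 30 reads in a library resolve only differences of many points.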
